A study of Mus musculus with 12 samples.

Results

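Glycolysis converts glucose to pyruvate in the cytosol, and lactate is exported when pyruvate is not burned in mitochondria. HIF-1 is a transcription factor whose alpha subunit, encoded by Hif1a, is marked for destruction by oxygen-sensing prolyl hydroxylases (the EGLN enzymes), and many glucose transporters and glycolytic enzymes are among its targets. In macrophages, stimulation of TLR4 by lipopolysaccharide (LPS) is known to raise Hif1a and to shift glucose use toward lactate. The genes described here are 32 members of this pathway among the 43131 genes of the count table: 3 glucose transporters, 3 hexokinases, 8 genes of upper glycolysis, 7 of lower glycolysis, 4 of lactate and pyruvate fate, Hif1a with 2 oxygen sensors, and 4 other HIF-1 targets. They were chosen by symbol, and each was measured on its transcript with the highest total count.

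RNA was sequenced from bone marrow-derived macrophages (BMDMs) of C57BL/6 mice, which had been differentiated in M-CSF (50 ng/mL, 7 days). Mice of the genotype tlr4f/f-lysM-cre make Cre from the lysozyme M (Lyz2) promoter of myeloid cells, which recombines floxed tlr4, while littermates of the genotype tlr4f/f carry the floxed allele without Cre. Cells received LPS at 1 µg/mL for 6 h (LPS+) or none (LPS-), so that 2 genotypes and 2 treatments make 4 groups with 3 libraries each, named by treatment and then genotype. Their order, where values are given without names, is LPS- tlr4f/f, then LPS- tlr4f/f-lysM-cre, then LPS+ tlr4f/f, then LPS+ tlr4f/f-lysM-cre. All groups carry the floxed allele, the age of the marrow donors is not given in the sources used here, and nothing says that the libraries of a group came from separate mice, so the p-values measure the spread between these libraries, which may be technical.

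The heading of the LPS- tlr4f/f-lysM-cre libraries and that of the LPS+ tlr4f/f libraries may be exchanged. Tlr4, the targeted gene, averaged 115 CPM (counts scaled to the library size with TMM factors) in LPS- tlr4f/f and 109.5 in LPS- tlr4f/f-lysM-cre, against 27.7 in LPS+ tlr4f/f and 25.6 in LPS+ tlr4f/f-lysM-cre. These counts cover a whole transcript and not only the floxed part. Lyz2, the locus of the Cre, was at 13101, 7585, 11.8 and 62.3 CPM in the same order. Il1b, a cytokine gene that LPS is known to induce, was at 3.70, 4223, 3.21 and 2599 CPM, and Nos2, the inducible nitric oxide synthase, at 1.67, 3299, 0.724 and 162 CPM. Tlr4 and Lyz2 thus divided the libraries by LPS as headed, and Il1b and Nos2 divided them by genotype as headed. Groups are named by their headings below, and every comparison has 2 readings. Comparing the LPS+ groups gives the effect of genotype with LPS as headed, and of LPS in tlr4f/f-lysM-cre cells if exchanged. Comparing the LPS- groups gives the effect of genotype without LPS as headed, and of LPS in tlr4f/f cells if exchanged. Comparing the tlr4f/f groups gives the effect of LPS in tlr4f/f as headed, and of genotype without LPS if exchanged. Comparing the tlr4f/f-lysM-cre groups gives the effect of LPS in tlr4f/f-lysM-cre as headed, and of genotype with LPS if exchanged. Which reading holds was not tested.

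Libraries held between 33577087 and 56445268 counts. The biological coefficient of variation was 48.4% in LPS- tlr4f/f and 42.2% in LPS- tlr4f/f-lysM-cre, against 8.75% in LPS+ tlr4f/f and 8.95% in LPS+ tlr4f/f-lysM-cre. All 8 macrophage markers were detected, with sums between 4805 and 14680 CPM. The 6 fibroblast and stromal markers summed to 663, 62.8 and 9.28 CPM in the 3 LPS- tlr4f/f libraries and to 960, 182 and 1440 CPM in the LPS- tlr4f/f-lysM-cre libraries. The LPS+ libraries had stromal sums between 20.7 and 56.9 CPM. Sums of neutrophil markers lay between 0.0747 and 27.4 CPM, those of the other cell types checked did not pass 6.35 CPM, and Ly6g, Cd3e and Flt3 had at most 3 counts in every library. In bulk RNA, fewer cells of a type and less RNA per cell cannot be told apart.

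The members spanned a wide range of levels. Per kilobase of transcript, Pkm (pyruvate kinase) had the highest median over the 12 libraries at 1440 CPM per kb, with a range from 1055 to 2069. Aldoa (aldolase A) followed at 830 CPM per kb with a range from 656 to 1474, so that these neighbours overlapped. Gapdh, Eno1, Ldha and Pgk1 came next with medians between 415 and 524 CPM per kb and overlapping ranges. At the other end, Slc2a3 had a median of 0.872 and Egln3 of 0.448 CPM per kb.

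A gene was called a DEG when edgeR's quasi-likelihood test gave it an adjusted p below 0.01 and its fold change exceeded 2. Between the LPS+ groups, 8 of 32 members were DEGs higher in LPS+ tlr4f/f-lysM-cre and 3 were lower, where 10.8% and 10.9% of all genes tested were higher and lower. At an adjusted p below 0.05 the members numbered 17 higher and 7 lower, against 30.5% and 31.0% of all genes. With all 12 libraries in a single fit, 11 of these 24 had an adjusted p above 0.05: Hk1, Pfkm, Pfkfb4, Aldoa, Gapdh, Pgk1, Pgam1, Eno1, Slc16a1, Egln3 and Bnip3. Between the LPS- groups, 7 members were DEGs higher in LPS- tlr4f/f-lysM-cre and 2 were lower, against 9.25% and 7.81% of all genes, and at an adjusted p below 0.05 they numbered 11 and 3, against 17.9% and 19.4%. The median log2 fold change of the members was 0.18 between the LPS+ groups and 0.51 between the LPS- groups, where the medians of all genes were -0.02 and -0.08. Members whose 3 libraries all lay above those of the other group numbered 16 between the LPS+ groups and 12 between the LPS- groups, against 33.5% and 25.1% of all genes. Members that lay wholly below numbered 7 and 6, against 33.8% and 29.1% of all genes.

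These 2 comparisons share no library. The DEGs of both were Slc2a3, Hk2, Pfkl, Pfkfb3, Slc16a3, Hif1a and P4ha1, which make 7 of the 11 DEGs between the LPS+ groups and 7 of the 9 between the LPS- groups, each with the same direction in both. Of all genes tested in both comparisons, 1476 were DEGs of both, which is 48.6% of the DEGs between the LPS+ groups and 60.4% of those between the LPS- groups, and 1474 of them had the same direction. Slc2a1, Slc2a6, Eno2 and Vegfa were DEGs between the LPS+ groups and not between the LPS- groups, and Pfkfb4 and Bnip3 the other way round. Without the 3 libraries with over 500 CPM of stromal markers, 1 against 2 libraries were left between the LPS- groups and none of 15819 genes was a DEG.

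**Figure D1:**
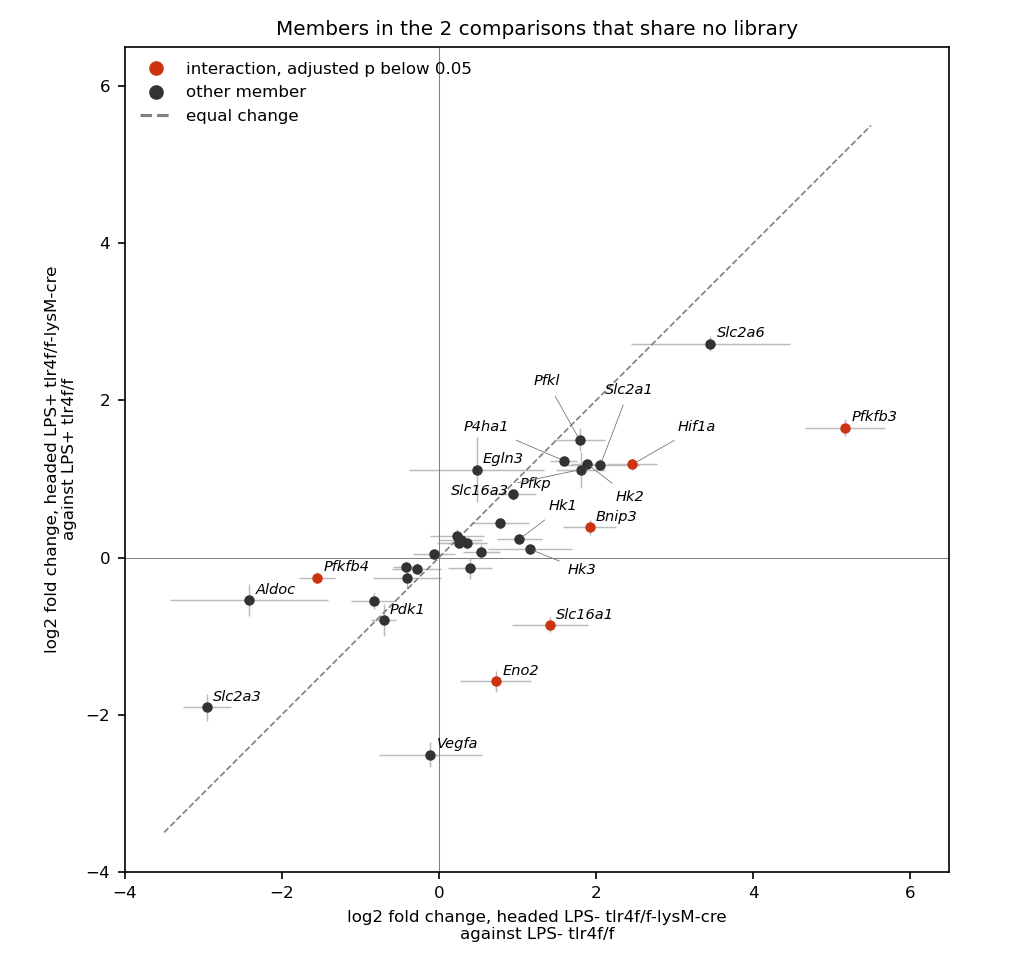
Each point is 1 of the 32 members, with its log2 fold change between the LPS- groups (tlr4f/f-lysM-cre over tlr4f/f) on the x axis and between the LPS+ groups on the y axis, bars of 1 standard error, a dashed line of equal change, and in red the members with an adjusted p below 0.05 for the interaction. Pfkfb3 stands apart at 5.17 on the x axis and 1.65 on the y axis, and Vegfa at -0.11 on the x axis and -2.51 on the y axis.

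Between the tlr4f/f groups, no member was a DEG and none had an adjusted p below 0.05 in edgeR, where 0% of all genes were DEGs in either direction and 0.599% and 0.673% were higher and lower at an adjusted p below 0.05. Of the 32 members, 11 had an unadjusted p below 0.05, against 24.7% of all genes. DESeq2 called 2 members DEGs (Vegfa higher and Ndrg1 lower in LPS+ tlr4f/f), against 467 of all 14701 genes tested. With limma voom Vegfa was a DEG, against 54 of all 14701 genes. Between the tlr4f/f-lysM-cre groups, 1 member was a DEG higher in LPS+ tlr4f/f-lysM-cre and 1 was lower, against 2.42% and 3.65% of all genes. At an adjusted p below 0.05, 1 member was higher and 12 were lower, against 12.5% and 14.2% of all genes, and the median log2 fold change of the members was -0.69, with 0.03 for all genes. These 13 calls rest on few libraries. Without LPS+ tlr4f/f-lysM-cre replicate 2, 11 of them, all but Pfkfb3 and Pfkfb4, had an adjusted p above 0.05, up to 0.161 for Slc2a1. The loss was not particular to the members. Over all genes, DEGs fell from 865 to 4, 7 and 15 without LPS+ tlr4f/f-lysM-cre replicate 1, 2 and 3. The log2 fold changes of the 13 kept their sign in these fits.

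Slc2a1 (GLUT1), Slc2a3 (GLUT3) and Slc2a6 (GLUT6) are glucose transporters of the facilitative family, and they did not move alike. Slc2a1 was at 162, 109 and 44.9 CPM in LPS- tlr4f/f, 612, 365 and 348 in LPS- tlr4f/f-lysM-cre, 109, 107 and 120.5 in LPS+ tlr4f/f, and 246, 246 and 275 in LPS+ tlr4f/f-lysM-cre. Slc2a6 was at 15.1, 25.8 and 144 CPM in LPS- tlr4f/f, 631, 1165 and 252 in LPS- tlr4f/f-lysM-cre, 62.9, 68.9 and 56.8 in LPS+ tlr4f/f, and 398, 469 and 384 in LPS+ tlr4f/f-lysM-cre. Within each pair of LPS+ or LPS- groups, both transporters were higher in every tlr4f/f-lysM-cre library than in any tlr4f/f library. The log2 fold change of Slc2a6 between the LPS+ groups was 2.72 (SE 0.095, adjusted p 3.65e-09 in edgeR), which is 6.61-fold, and that of Slc2a1 was 1.18 (SE 0.066, adjusted p 1e-08). With all 12 libraries in a single fit neither was a DEG, at adjusted p of 0.0218 and 0.0334. Between the LPS- groups the log2 values were 3.46 (SE 1.01, adjusted p 0.038) for Slc2a6 and 2.06 (SE 0.501, adjusted p 0.0206) for Slc2a1. Neither LPS- call held in every fit without 1 library, with adjusted p up to 0.107 for Slc2a6 and 0.0636 for Slc2a1, both without LPS- tlr4f/f replicate 2. Slc2a3 moved the other way, from 9.78, 7.80 and 13.8 CPM in LPS- tlr4f/f to 1.48, 1.41 and 1.18 in LPS- tlr4f/f-lysM-cre, and from 6.39, 6.09 and 5.64 in LPS+ tlr4f/f to 1.48, 1.41 and 1.93 in LPS+ tlr4f/f-lysM-cre. It was lower by both comparisons with no overlap, at log2 values of -1.91 (SE 0.17, adjusted p 7.9e-07) with LPS+ headings and -2.96 (SE 0.305, adjusted p 0.00121) with LPS- headings.

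As a share of the 3 transporters per kilobase, Slc2a1 held 58.6% ± 3.76 (SD, n = 3) in LPS+ tlr4f/f and 33.8% ± 3.48 in LPS+ tlr4f/f-lysM-cre, while Slc2a6 held 39.6% ± 3.67 and 66.1% ± 3.51. The order within LPS+ tlr4f/f depends on the transcript, since with summed transcripts the 3 libraries held 41.6%, 39.4% and 46.9% of Slc2a1 and 55.5%, 58.1% and 50.7% of Slc2a6. In LPS+ tlr4f/f-lysM-cre Slc2a6 had the larger share with either. In the LPS- groups the shares of Slc2a1 were 60.8% ± 35.9 and 39.5% ± 16.9, with overlapping libraries.

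Hexokinases phosphorylate glucose on entry, and of the 3 measured it was Hk2 (hexokinase II, the regulated form known from muscle and tumours) that was a DEG in both comparisons of the genotypes as headed. Hk2 was at 64.7, 61.1 and 71.6 CPM in LPS- tlr4f/f, 299.9, 216 and 214 in LPS- tlr4f/f-lysM-cre, 63.6, 61.1 and 60.7 in LPS+ tlr4f/f, and 141, 136 and 149 in LPS+ tlr4f/f-lysM-cre. Its 6 tlr4f/f libraries lay within 60.7 to 71.6 CPM, below all 6 tlr4f/f-lysM-cre libraries. It rose by a log2 value of 1.20 (SE 0.0533, adjusted p 1.28e-09) between the LPS+ groups and 1.88 (SE 0.192, adjusted p 0.00117) between the LPS- groups. Hk1, the housekeeping form, differed by 0.23 (SE 0.0582, adjusted p 0.00425) between the LPS+ groups, under a 2-fold change. It was at 187, 166 and 174 CPM in LPS- tlr4f/f, 453, 414 and 213 in LPS- tlr4f/f-lysM-cre, 119.9, 124 and 135 in LPS+ tlr4f/f, and 142, 151 and 153 in LPS+ tlr4f/f-lysM-cre. Its log2 value was 1.02 (SE 0.287, adjusted p 0.0321) between the LPS- groups and -1.26 (SE 0.266, adjusted p 0.0168) from LPS- to LPS+ tlr4f/f-lysM-cre. The former held an adjusted p below 0.05 only without LPS- tlr4f/f-lysM-cre replicate 3, with values up to 0.0969, and the latter lost it without any 1 of the LPS+ tlr4f/f-lysM-cre libraries, with values up to 0.0799. Hk3, the most abundant hexokinase per kilobase, was at 378, 719 and 195 CPM in LPS- tlr4f/f, 673, 1502 and 748 in LPS- tlr4f/f-lysM-cre, 508, 588 and 569 in LPS+ tlr4f/f, and 586, 618 and 595 in LPS+ tlr4f/f-lysM-cre. It passed no test, with adjusted p of 0.157 and 0.134 in edgeR between the LPS+ and the LPS- groups. Hk3 held 79.7% ± 1.10 of hexokinase transcripts per kilobase in LPS+ tlr4f/f and 74.2% ± 0.808 in LPS+ tlr4f/f-lysM-cre, and the share of Hk2 was 5.49% and 10.8%.

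**Figure D2:**
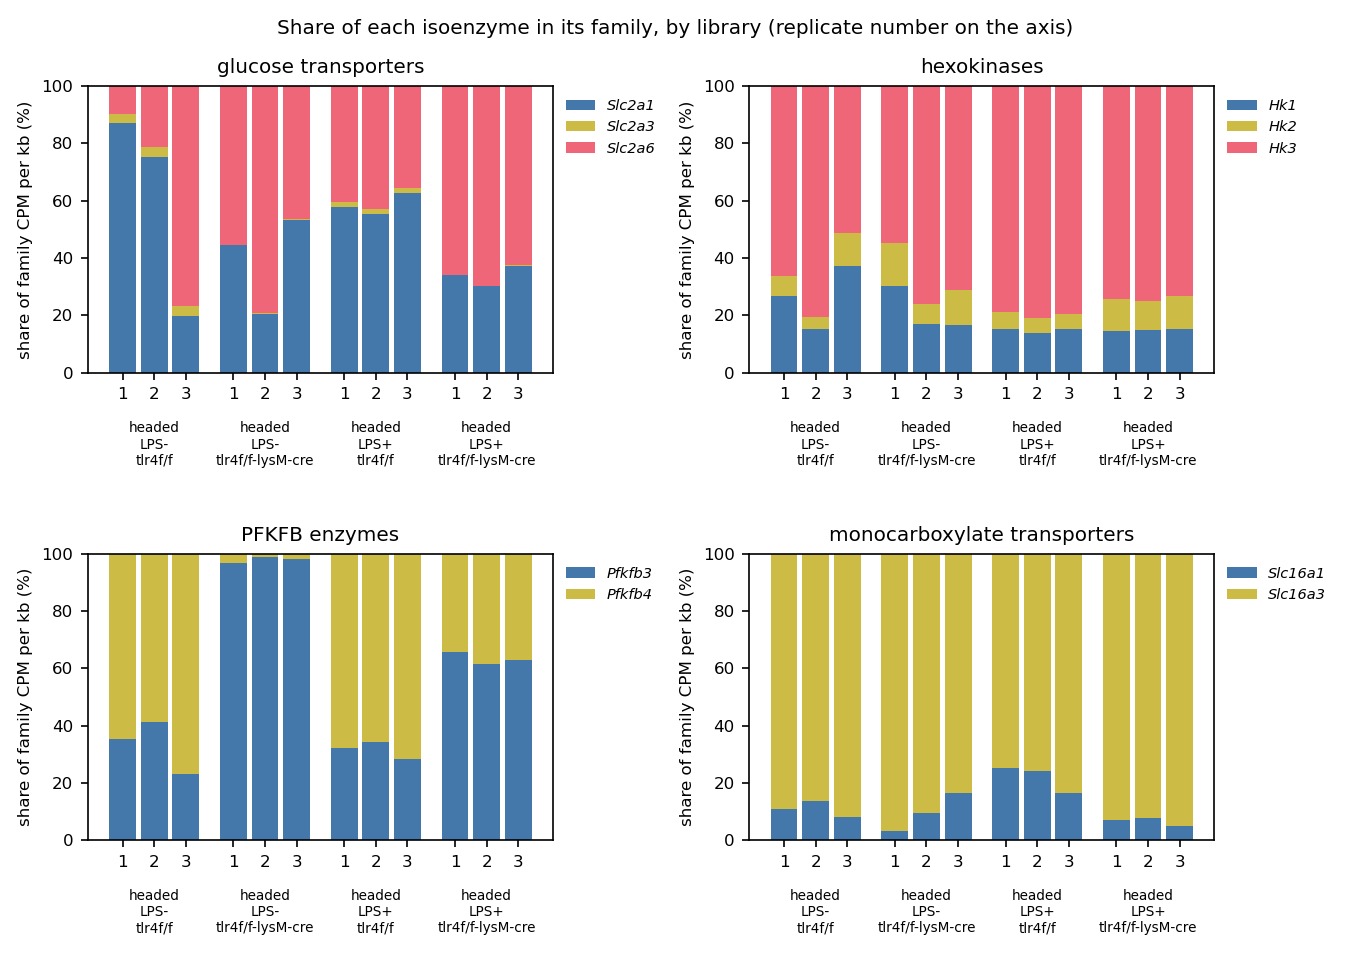
Bars stack the share, in percent of the family's summed CPM per kilobase, of each glucose transporter, hexokinase, PFKFB enzyme and monocarboxylate transporter in each of the 12 libraries, grouped by heading. Pfkfb3 fills nearly the whole PFKFB bar in the 3 LPS- tlr4f/f-lysM-cre libraries, with a mean of 97.8%, and the smaller part of it in the tlr4f/f libraries, with means of 33.3% (LPS-) and 31.6% (LPS+).

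In upper glycolysis the largest change of all members was that of Pfkfb3, one of the enzymes that make fructose 2,6-bisphosphate, the activator of phosphofructokinase. Pfkfb3 was at 30.5, 49.3 and 28.4 CPM in LPS- tlr4f/f, 632, 1879 and 1428 in LPS- tlr4f/f-lysM-cre, 28.6, 34.4 and 26.6 in LPS+ tlr4f/f, and 99.1, 83.4 and 99.8 in LPS+ tlr4f/f-lysM-cre. The LPS- tlr4f/f-lysM-cre libraries were the highest and no tlr4f/f library reached any tlr4f/f-lysM-cre library. Its log2 fold change was 5.17 (SE 0.509, adjusted p 0.00106) between the LPS- groups, 1.65 (SE 0.106, adjusted p 1.13e-06) between the LPS+ groups, and -3.79 (SE 0.4, adjusted p 0.0023) from LPS- to LPS+ tlr4f/f-lysM-cre, which is 13.8-fold lower. The last was no DEG without any 1 of the LPS+ tlr4f/f-lysM-cre libraries, where its adjusted p reached 0.0244. Between the tlr4f/f groups Pfkfb3 differed by -0.25 (adjusted p 0.556).

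Pfkfb4, a second enzyme of the same family, had the opposite direction. It was at 36.1, 45.3 and 61.6 CPM in LPS- tlr4f/f, 14.3, 16.4 and 18.4 in LPS- tlr4f/f-lysM-cre, 39.0, 42.9 and 43.4 in LPS+ tlr4f/f, and 33.4, 33.8 and 38.1 in LPS+ tlr4f/f-lysM-cre. Only the LPS- tlr4f/f-lysM-cre libraries stood clear of the other 9. The log2 fold change was -1.55 (SE 0.231, adjusted p 0.00358) between the LPS- groups and 1.11 (SE 0.139, adjusted p 0.00359) from LPS- to LPS+ tlr4f/f-lysM-cre, with adjusted p up to 0.0177 and 0.0294 without 1 library. The first was then a DEG only in the fits without LPS- tlr4f/f replicate 1 or 3, and the second only in those without a LPS- tlr4f/f-lysM-cre library. Between the LPS+ groups it was -0.26 (SE 0.0714, adjusted p 0.00764). As a share of Pfkfb3 and Pfkfb4 per kilobase, Pfkfb3 was 33.3% ± 9.35 (SD, n = 3) in LPS- tlr4f/f, 97.8% ± 1.05 in LPS- tlr4f/f-lysM-cre, 31.6% ± 2.93 in LPS+ tlr4f/f and 63.4% ± 2.19 in LPS+ tlr4f/f-lysM-cre. The tlr4f/f groups thus had more Pfkfb4 than Pfkfb3, and the tlr4f/f-lysM-cre groups the reverse.

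Phosphofructokinase itself is made from Pfkl, Pfkm and Pfkp, the liver, muscle and platelet forms. Pfkl was at 75.04, 53.0 and 51.9 CPM in LPS- tlr4f/f, 309, 156 and 160.2 in LPS- tlr4f/f-lysM-cre, 30.9, 29.3 and 39.1 in LPS+ tlr4f/f, and 85.4, 86.9 and 110.4 in LPS+ tlr4f/f-lysM-cre. Each tlr4f/f-lysM-cre library was above every tlr4f/f library. The log2 fold change of Pfkl was 1.502 (SE 0.151, adjusted p 0.000153) between the LPS+ groups and 1.79 (SE 0.33, adjusted p 0.00746) between the LPS- groups, the latter with an adjusted p between 0.0105 and 0.0318 without any 1 library, so that it was then no DEG. Pfkp rose by 0.80 (SE 0.0689, adjusted p 5.65e-07) and Pfkm fell by 0.55 on the log2 scale (SE 0.107, adjusted p 0.000647) between the LPS+ groups, both under 2-fold. Aldoa, which splits fructose 1,6-bisphosphate, was at 1587, 1339 and 1493 CPM in LPS- tlr4f/f, 2341, 1644 and 1301 in LPS- tlr4f/f-lysM-cre, 1042, 1105 and 1149 in LPS+ tlr4f/f, and 1210.1, 1219.8 and 1335 in LPS+ tlr4f/f-lysM-cre. Its difference between the LPS+ groups was 0.19 (SE 0.0611, adjusted p 0.0189), with an adjusted p of 0.0793 without LPS+ tlr4f/f-lysM-cre replicate 3 and 0.0767 without LPS+ tlr4f/f replicate 1. Gpi1, the isomerase between hexokinase and phosphofructokinase, differed by 0.04 (adjusted p 0.558). Aldoc, the aldolase known from brain, was at -0.54 between the LPS+ groups and -2.42 between the LPS- groups, with adjusted p of 0.0602 and 0.104 in edgeR. Its LPS- libraries were at 17.1, 15.5 and 98.9 CPM in tlr4f/f and 12.7, 10.4 and 1.62 in tlr4f/f-lysM-cre, with replicate 3 farthest out in each group.

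The promoters of members that moved in both comparisons are shown for the HIF-1 core motif, searched on both strands as the letters ACGTG and as the variant with a first G, or GCGTG, in RefSeq windows of 300 bases (GRCm38.p6, from 250 before to 50 after a start). Capitals mark the motif or its reverse complement (CACGT for the former, and for the latter CACGC), and the palindrome CACGTG holds 2 matches that overlap. Pfkfb3, Slc2a6, Hk2, Hif1a and P4ha1 are examples chosen after their values were seen, among those whose segments hold no annotated exon. The segments of Pfkl and of Pdk1, which was lower in both comparisons, hold none either and are not shown. The Pfkfb3 segment (chr2:11502113-11502237, minus strand) lies in an intron before the gene's inner start, and that of Hif1a (chr12:73907707-73907826, plus strand) in an intron before a later start. Those of Slc2a6 (chr2:27028031-27028132, minus strand), Hk2 (chr6:82774477-82774531, minus strand) and P4ha1 (chr10:59323108-59323199, plus strand) lie outside annotated genes. Each segment was cut around the run of matches before the start that held the most. The windows of Pfkfb3, Slc2a6, Hk2 and P4ha1 hold 4, 4, 2 and 3 matches, of which 3, 3, 1 and 2 are shown. For Hif1a all 3 are shown.
Pfkfb3: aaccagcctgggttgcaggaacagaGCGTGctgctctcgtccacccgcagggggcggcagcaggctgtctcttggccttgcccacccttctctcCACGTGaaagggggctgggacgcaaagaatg
Slc2a6: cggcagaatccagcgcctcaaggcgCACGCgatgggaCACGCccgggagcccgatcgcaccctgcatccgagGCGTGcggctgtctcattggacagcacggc
Hk2: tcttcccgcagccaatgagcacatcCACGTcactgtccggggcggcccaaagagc
Hif1a: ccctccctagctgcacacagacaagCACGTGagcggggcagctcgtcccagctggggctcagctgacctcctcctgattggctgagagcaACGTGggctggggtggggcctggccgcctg
P4ha1: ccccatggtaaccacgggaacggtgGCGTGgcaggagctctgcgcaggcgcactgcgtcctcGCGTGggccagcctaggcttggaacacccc

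Windows were given for 30 of the 32 members, and 27 of them (90%) held a motif in at least 1 window, against 46.7% of 27025 genes. By window, 35 of 44 (79.5%) held one, against 43.8% of 32851. Members have more windows and more GC than genes at large, with a median GC of 62.2% against 52.7%, and a motif match is a description of letters, not of binding. The 3 members without a motif in any window were Eno2, Tpi1 and Gpi1.

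Lower glycolysis showed small differences. Gapdh (0.22), Pgk1 (0.43), Pgam1 (0.18) and Eno1 (0.27), enzymes of the steps from glyceraldehyde 3-phosphate to phosphoenolpyruvate, were higher on the log2 scale in LPS+ tlr4f/f-lysM-cre than in LPS+ tlr4f/f, with adjusted p of 0.0111, 0.000117, 0.0323 and 0.0338 in edgeR. The Pgam1 and Eno1 calls did not hold in every fit without 1 library, with adjusted p up to 0.124 (without LPS+ tlr4f/f replicate 1) and 0.106 (without LPS+ tlr4f/f replicate 2). With all 12 libraries in a single fit, the adjusted p of these 4 genes lay between 0.257 and 0.529. Between the LPS- groups none of the 7 genes had an adjusted p below 0.05, and none an unadjusted p below 0.05, against 47.9% of all genes. Tpi1, which interconverts the triose phosphates, was at -0.14 (adjusted p 0.412) between the LPS+ groups. Pkm was at 4622, 3627 and 5032 CPM in LPS- tlr4f/f, 4899, 3526 and 2565 in LPS- tlr4f/f-lysM-cre, 3325, 3419.7 and 3736 in LPS+ tlr4f/f, and 3005, 3039.9 and 3477 in LPS+ tlr4f/f-lysM-cre. The groups overlapped, with adjusted p of 0.0993 between the LPS+ groups and 0.51 between the LPS- groups. The exception was Eno2, the enolase known from neurons, at 18.8, 20.2 and 24.1 CPM in LPS+ tlr4f/f and 7.58, 5.79 and 7.82 in LPS+ tlr4f/f-lysM-cre, a log2 value of -1.58 (SE 0.129, adjusted p 6.11e-07). In the LPS- groups Eno2 was at 6.39, 15.6 and 8.01 CPM in tlr4f/f and 20.1, 21.2 and 8.84 in tlr4f/f-lysM-cre, which overlapped. Eno1 held at least 98.4% of enolase transcripts per kilobase on average in every group.

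**Figure D3:**
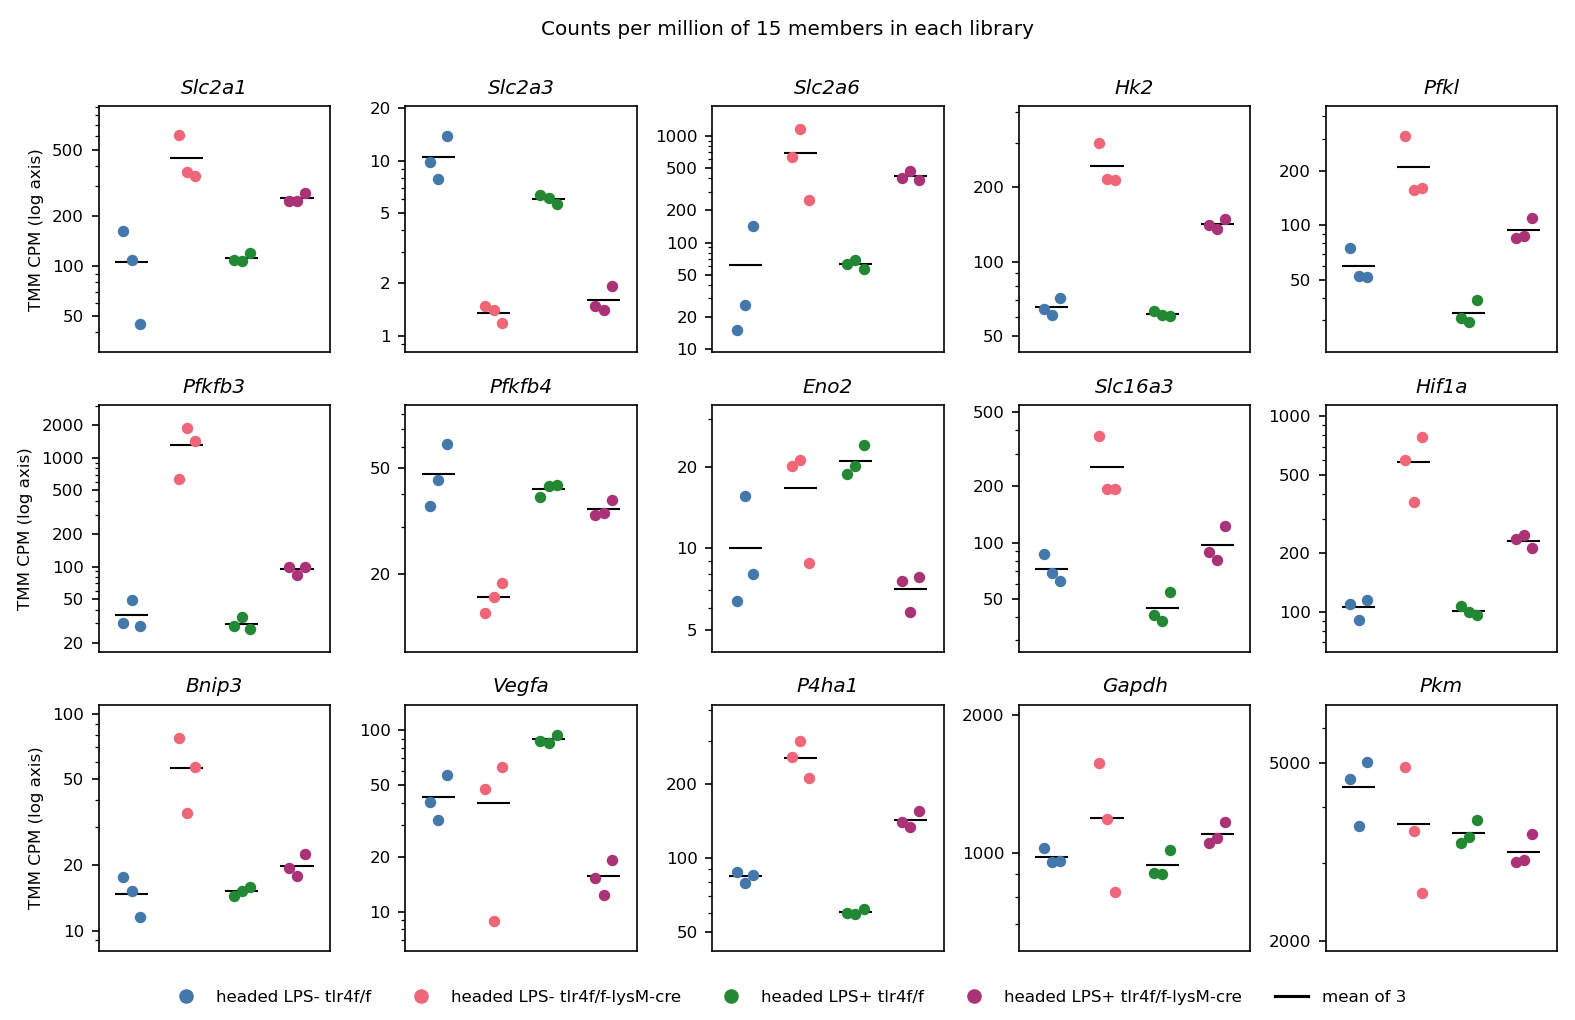
Points give the CPM, on a log axis, of 15 members in each of the 12 libraries, coloured by heading, with the mean of 3 as a line. Hk2, Pfkfb3, Pfkl, Slc16a3, Hif1a and P4ha1 are higher in every tlr4f/f-lysM-cre library than in any tlr4f/f library with the same LPS heading, and Slc2a3 is lower in every one.

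Lactate dehydrogenase A (Ldha), which reduces pyruvate to lactate, was at 647, 816 and 630.3 CPM in LPS- tlr4f/f, 1193, 1090.1 and 781 in LPS- tlr4f/f-lysM-cre, 632, 675 and 739 in LPS+ tlr4f/f, and 649.5, 697 and 820.1 in LPS+ tlr4f/f-lysM-cre. It passed no test, at adjusted p of 0.502 between the LPS+ groups and 0.115 between the LPS- groups. Slc16a3 (MCT4), a monocarboxylate transporter known for lactate export, was at 86.3, 68.6 and 62.2 CPM in LPS- tlr4f/f, 373, 194 and 194 in LPS- tlr4f/f-lysM-cre, 40.8, 37.9 and 54.6 in LPS+ tlr4f/f, and 88.6, 80.6 and 122 in LPS+ tlr4f/f-lysM-cre. Its tlr4f/f-lysM-cre libraries lay above the tlr4f/f libraries of the same LPS heading. The log2 fold change was 1.12 (SE 0.23, adjusted p 0.00994) between the LPS+ groups and 1.80 (SE 0.315, adjusted p 0.00622) between the LPS- groups. Both sat near the threshold. Between the LPS+ groups the DEG call held in 1 of 6 fits without 1 library, that without LPS+ tlr4f/f replicate 3, with adjusted p up to 0.0377, and between the LPS- groups it held in 1 of 6, that without LPS- tlr4f/f-lysM-cre replicate 1, with adjusted p up to 0.0271.

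Slc16a1 (MCT1), the second lactate transporter, was at 18.8, 19.2 and 9.55 CPM in LPS- tlr4f/f, 21.8, 36.7 and 68.9 in LPS- tlr4f/f-lysM-cre, 24.4, 21.4 and 19.3 in LPS+ tlr4f/f, and 12.3, 12.05 and 11.7 in LPS+ tlr4f/f-lysM-cre. It was lower in LPS+ tlr4f/f-lysM-cre than in LPS+ tlr4f/f by a log2 value of -0.86 (SE 0.0939, adjusted p 5.34e-06), against 1.41 (SE 0.483, adjusted p 0.0608) between the LPS- groups. Its highest library, at 68.9 CPM, was also the one with 1440 CPM of stromal markers, and the part of these cells in the value was not tested. The share of Slc16a3 among both transporters per kilobase was 78.1% ± 4.68 (SD, n = 3) in LPS+ tlr4f/f and 93.3% ± 1.38 in LPS+ tlr4f/f-lysM-cre. Pdk1, the kinase that shuts pyruvate dehydrogenase, averaged 93.0 ± 5.11 CPM in LPS+ tlr4f/f and 53.7 ± 14.9 in LPS+ tlr4f/f-lysM-cre, a log2 value of -0.80 (SE 0.208, adjusted p 0.0221). Between the LPS- groups its means were 76.1 ± 8.09 and 47.1 ± 6.81 CPM, a log2 value of -0.70 (SE 0.163, adjusted p 0.0166). Both Pdk1 calls were lost in some fits without 1 library, with adjusted p up to 0.0838 (without LPS+ tlr4f/f-lysM-cre replicate 1) and 0.0663 (without LPS- tlr4f/f replicate 2).

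Hif1a itself was at 110.1, 91.0 and 116 CPM in LPS- tlr4f/f, 597, 365 and 785 in LPS- tlr4f/f-lysM-cre, 108, 100.4 and 96.1 in LPS+ tlr4f/f, and 235, 247 and 212 in LPS+ tlr4f/f-lysM-cre. The 6 tlr4f/f libraries lay between 91.0 and 116 CPM, below all tlr4f/f-lysM-cre libraries. The log2 fold change was 1.19 (SE 0.066, adjusted p 9.85e-09) between the LPS+ groups, which is 2.27-fold, and 2.46 (SE 0.321, adjusted p 0.00236) between the LPS- groups. The tlr4f/f groups differed by -0.03 (adjusted p 0.883). The DEG call between the LPS- groups was lost without LPS- tlr4f/f replicate 2, at an adjusted p of 0.0124. The LPS- tlr4f/f-lysM-cre libraries at 597, 365 and 785 CPM had stromal marker sums of 960, 182 and 1440 CPM, and the part of these cells was not tested. Without the 3 stromal-rich libraries only replicate 2 was left of LPS- tlr4f/f-lysM-cre, so the spread of that group was not measured. The log2 value of Hif1a was then 1.85 between the LPS- groups, and from LPS- to LPS+ tlr4f/f-lysM-cre it went from -1.33 to -0.66. The oxygen sensors did not rise with it as DEGs. Egln1 (PHD2) averaged 49.9, 37.4, 43.8 and 40.3 CPM in the 4 groups, with an adjusted p of 0.111 between the LPS+ groups. Egln3 (PHD3) averaged 2.95, 4.12, 0.707 and 1.57 CPM, and its log2 value of 1.12 between the LPS+ groups (SE 0.414, adjusted p 0.036) came with overlapping libraries and an adjusted p of 0.188 without LPS+ tlr4f/f-lysM-cre replicate 3.

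The other HIF-1 targets went in different directions. P4ha1, a subunit of the collagen prolyl hydroxylase, was at 88.1, 79.3 and 85.7 CPM in LPS- tlr4f/f, 257, 298 and 212 in LPS- tlr4f/f-lysM-cre, 60.01, 59.4 and 62.4 in LPS+ tlr4f/f, and 141, 133 and 156 in LPS+ tlr4f/f-lysM-cre. It rose without overlap between the LPS+ groups (log2 1.23, SE 0.0628, adjusted p 4.35e-09) and between the LPS- groups (1.59, SE 0.166, adjusted p 0.00122). Bnip3, a mitophagy receptor, was at 17.6, 15.3 and 11.5 CPM in LPS- tlr4f/f, 77.0, 34.8 and 56.6 in LPS- tlr4f/f-lysM-cre, 14.5, 15.2 and 15.9 in LPS+ tlr4f/f, and 19.5, 17.9 and 22.4 in LPS+ tlr4f/f-lysM-cre. Its log2 value was 1.92 (SE 0.333, adjusted p 0.00616) between the LPS- groups, with an adjusted p up to 0.0249 without 1 library and a DEG call only in the fit without LPS- tlr4f/f-lysM-cre replicate 2, and 0.39 (SE 0.0934, adjusted p 0.00316) between the LPS+ groups. Without the 3 stromal-rich libraries only replicate 2 was left of LPS- tlr4f/f-lysM-cre. The value of Bnip3 was then 1.41 between the LPS- groups, and from LPS- to LPS+ tlr4f/f-lysM-cre it went from -1.49 to -0.81.

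Vegfa, the angiogenic growth factor, was at 87.2, 85.4 and 94.7 CPM in LPS+ tlr4f/f and 15.3, 12.3 and 19.4 in LPS+ tlr4f/f-lysM-cre. This was the largest fall among the members between the LPS+ groups, with a log2 value of -2.51 (SE 0.155, adjusted p 8.23e-06), or 5.69-fold lower. In the LPS- groups Vegfa was at 40.0, 32.2 and 56.9 CPM in tlr4f/f and 47.7, 8.94 and 62.6 in tlr4f/f-lysM-cre, with a log2 value of -0.11 (adjusted p 0.909). The tlr4f/f-lysM-cre libraries at 47.7 and 62.6 CPM had stromal marker sums of 960 and 1440 CPM, and the one at 8.94 CPM had 182, a relation whose part in the result was not tested. Ndrg1, a stress-response gene, averaged 63.0 ± 27.3 and 47.8 ± 21.5 CPM in the LPS- groups and 18.7 ± 2.73 and 15.7 ± 2.78 CPM in the LPS+ groups, and was lower in LPS+ than in LPS- tlr4f/f-lysM-cre by a log2 value of -1.60 (SE 0.331, adjusted p 0.0158).

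**Figure D4:**
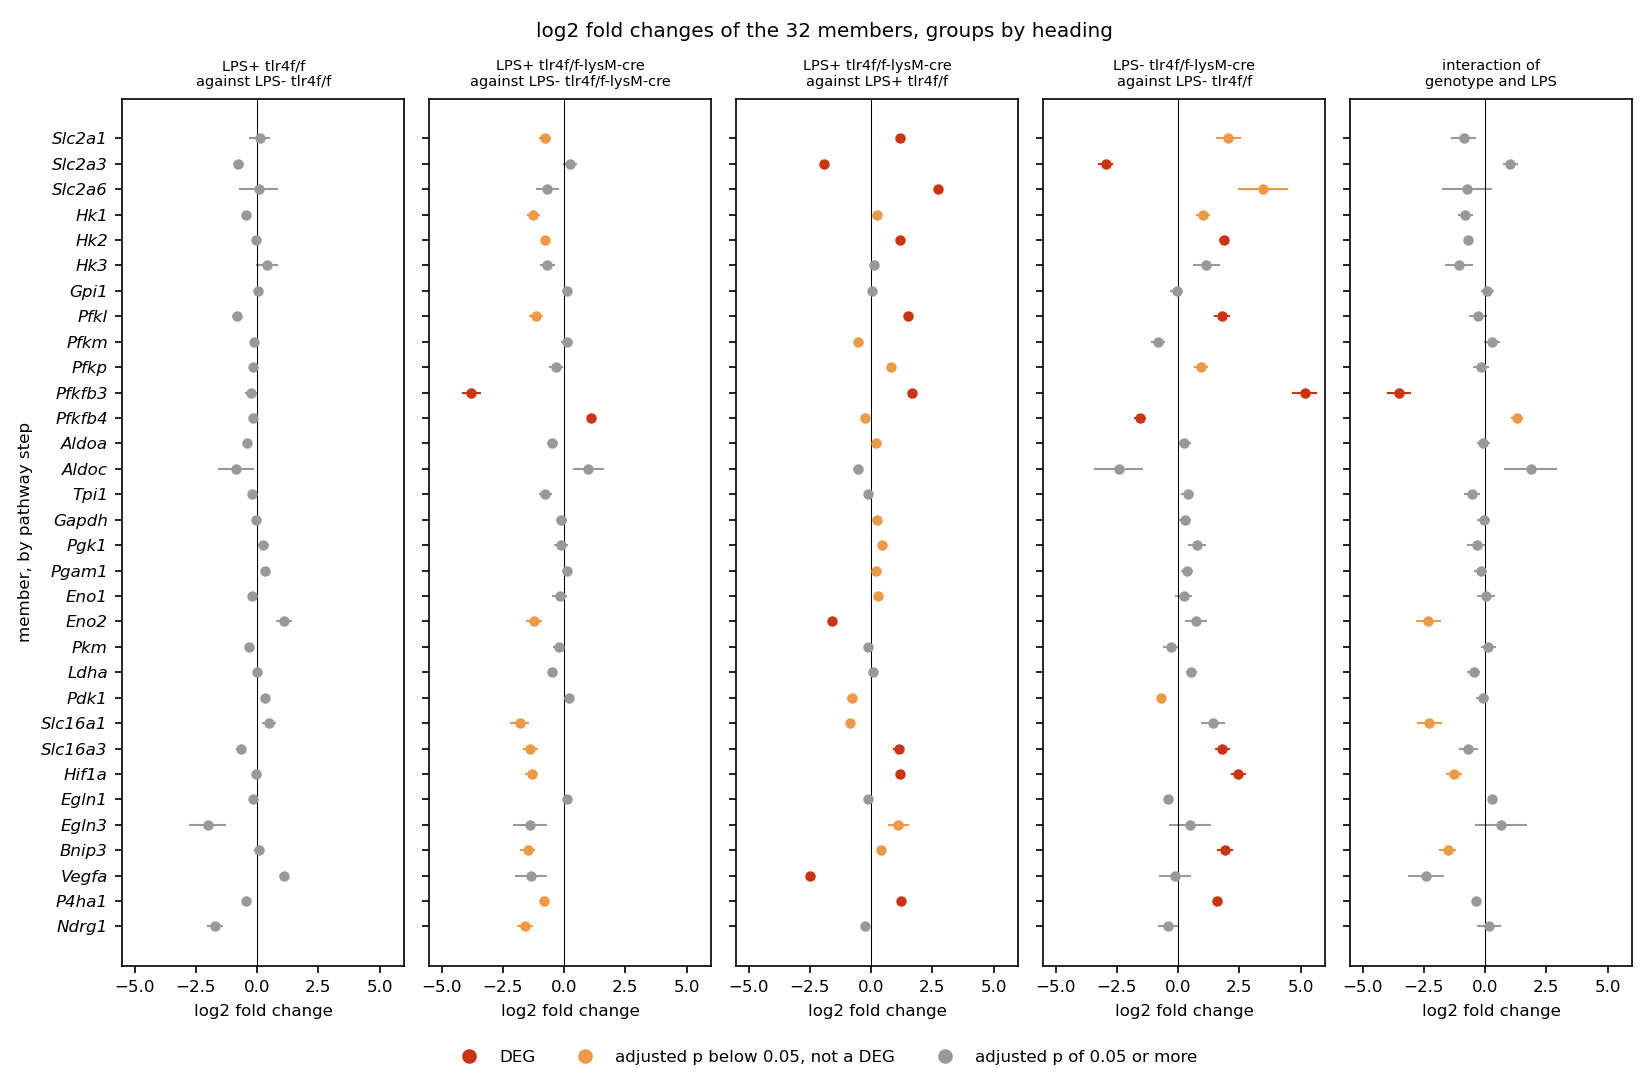
Log2 fold changes of the 32 members, ordered by pathway step, in the 4 comparisons and the interaction, with bars of 1 standard error, DEGs in red, other members with an adjusted p below 0.05 in orange and the rest in grey. The comparison of the tlr4f/f groups is all grey, and Eno2 between the LPS+ groups is the 1 red point of lower glycolysis.

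The interaction, the difference between the effects of LPS in the 2 genotypes, is the same contrast of the 4 groups under both readings of the headings. Of the members, 1 was a DEG and it was lower, against 0.659% of all genes higher and 0.380% lower. At an adjusted p below 0.05, 1 member was higher and 5 were lower, against 4.32% and 2.66% of all genes. Pfkfb3 was the DEG, with a log2 interaction of -3.53 (SE 0.49, adjusted p 0.00451). Its adjusted p stayed below 0.05 in every fit without 1 library, with a highest value of 0.0211, and it was no DEG without any 1 of the LPS+ libraries or without LPS- tlr4f/f replicate 1. Pfkfb4 had 1.29 (SE 0.246, adjusted p 0.0134) and a highest adjusted p of 0.0482. Eno2 (-2.31, adjusted p 0.0273), Slc16a1 (-2.27, adjusted p 0.0302), Bnip3 (-1.53, adjusted p 0.0284) and Hif1a (-1.27, adjusted p 0.037) lost an adjusted p below 0.05 without any 1 of the LPS+ libraries, with highest values of 0.0767, 0.0835, 0.0808 and 0.104. Hif1a lost it also without LPS- tlr4f/f replicate 1 or 2 or LPS- tlr4f/f-lysM-cre replicate 1. Hk2 was at -0.68 (adjusted p 0.0514) and Vegfa at -2.39 (SE 0.737, adjusted p 0.0803).

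Other genes of the pathway were taken from lists, whose counts at an adjusted p below 0.05 stand against 30.5% of all genes higher and 31.0% lower between the LPS+ groups, and 17.9% and 19.4% between the LPS- groups. Of 8 tested regulators of HIF, 2 were higher and 1 lower at an adjusted p below 0.05 between the LPS+ groups, with Epas1 (HIF-2 alpha) the DEG at -1.31 (SE 0.221, adjusted p 0.000806). Of 25 further HIF-1 targets tested there, 7 were higher and 11 lower, and of 26 tested between the LPS- groups 10 were higher and 4 lower. Adm, the peptide adrenomedullin, led both, with 24, 31 and 16 counts in LPS+ tlr4f/f-lysM-cre against 1, 0 and 1 in LPS+ tlr4f/f, which is at least 9.23-fold higher on a floor of 3 counts per library, and with a log2 value of 6.67 (SE 1.12, adjusted p 0.0056) between the LPS- groups. Adm had 629 counts over all 12 libraries, and the floor was not applied to its LPS- value. Ddit4, an inhibitor of mTORC1 signalling, led the tlr4f/f-lysM-cre comparison at -4.23 (SE 0.664, adjusted p 0.00708), from a mean of 21.9 CPM in LPS- to 1.16 in LPS+. Kdm3a, a histone demethylase, led the interaction at -1.08 (SE 0.131, adjusted p 0.00244).

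Further glycolytic isoenzymes and transporters numbered 1 higher and 5 lower of 10 tested between the LPS- groups and 2 higher and 4 lower of 11 between the LPS+ groups. Slc2a8 (GLUT8) led with -1.52 (SE 0.0984, adjusted p 4.02e-08) between the LPS+ groups, and Bpgm, which makes 2,3-bisphosphoglycerate, with -1.71 (SE 0.264, adjusted p 0.00401) between the LPS- groups. Of 14 further lactate and pyruvate genes, 4 were higher and 3 lower between the LPS+ groups and none higher and 3 lower between the LPS- groups. Pdk2, another pyruvate dehydrogenase kinase, led the first at -1.60 (SE 0.157, adjusted p 2.01e-06) and Slc16a7 (MCT2) the second at -1.82 (SE 0.241, adjusted p 0.00244), while Pdp2, a pyruvate dehydrogenase phosphatase, led the tlr4f/f-lysM-cre comparison at 1.17 (SE 0.206, adjusted p 0.00989). Of 10 genes of the pentose phosphate pathway and gluconeogenesis, 5 were higher and 2 lower between the LPS+ groups and 1 higher and 2 lower between the LPS- groups, with the mitochondrial Pck2 lowest between the LPS+ groups at -1.31 (SE 0.0699, adjusted p 6.91e-09), and it was at -2.40 (SE 0.353, adjusted p 0.00348) between the LPS- groups.

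The members that share exonic bases with another annotated gene are Slc2a1, Hk1, Hk3, Gpi1, Pfkm, Pfkp, Aldoa, Tpi1, Gapdh, Pkm, Hif1a, Bnip3 and Ndrg1. The kit does not mark strand, so reads from partners on the opposite strand cannot be told apart from those of the members. The near copies of Eno1, Aldoa and Gapdh that were checked stayed low, with Eno1b at most 2.81 CPM, Aldoart1 at most 0.0666 and Gapdh-ps15 at most 0.276 CPM in group means.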

How the data were processed

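BMDM RNA of 12 libraries, 3 per group, was sequenced from a kit that does not mark strand. The deposited values are whole-number counts per transcript, which the authors made by trimming with Trimmomatic 0.36, checking with FastQC, aligning to mm10 with HISAT2 and counting with HTSeq, without normalization. Ribosomal depletion is named in the protocol and polyA selection in the methods. Groups follow the column headings. For each of 43131 genes the transcript with the highest total was used, which left between 33577087 and 56445268 counts per library (median 45330681). Reads carry no molecular identifiers and are not independent molecules, and floors cover counting error only.

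Each comparison used its 6 libraries and the interaction all 12, by edgeR 4.0.16 under R 4.3.3 (filterByExpr, then TMM, robust quasi-likelihood test, Benjamini-Hochberg adjustment over all genes tested). SE is the log2 fold change over the square root of F. For a DEG the adjusted p had to be below 0.01 and the fold change over 2. CPM are TMM-scaled over 12 libraries, and shares divide by transcript length. Simulated counts, drawn with the same spread of a gene in every group, served as a check of the code. They cannot show how the tests behave when groups differ in spread, as the LPS- and LPS+ groups did here. Alternatives were DESeq2 1.42.0, limma 3.58.1 voom, RLE factors, 2 filters, the replicate block, a joint fit of all 12 libraries, an adjusted p below 0.05, summed transcripts and each library left out. The exclusion of libraries with over 500 CPM of stromal markers and the curated RefSeq transcripts for shares were added after seeing the data. The members, lists and tests were chosen with earlier results of these data known. All members were named, with Tlr4, Lyz2, Il1b and Nos2 as checks, the DEG of largest change in each list and comparison, and marker genes near 0. Libraries were given value by value for members that were DEGs in at least 2 comparisons or the interaction and for the most abundant of a step, and for Slc2a1, Slc2a6, Hk1, Aldoc, Eno2, Slc16a1, Bnip3 and Vegfa, added after their values were seen. Promoter windows are from RefSeq (GRCm38.p6) and exons from GENCODE M21. No protein table was used.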

Additional observations from a re-analysis of the deposited data

Results flagged for a closer look

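The effect of LPS differed between the genotypes for 6 members, by the interaction term over all 12 libraries at an adjusted p below 0.05 in edgeR. Of these 1 was higher and 5 were lower, against 4.32% and 2.66% of all genes. The log2 interaction was -3.53 for Pfkfb3, 1.29 for Pfkfb4, -2.31 for Eno2, -2.27 for Slc16a1, -1.27 for Hif1a and -1.53 for Bnip3. The calls of Eno2, Slc16a1, Hif1a and Bnip3 were lost without any 1 of the LPS+ libraries, with adjusted p up to 0.104. Those of Pfkfb3 and Pfkfb4 held in every fit without 1 library. For Pfkfb3, Pfkfb4, Hif1a and Bnip3 the group farthest from the other groups was LPS- tlr4f/f-lysM-cre, at mean levels of 1313, 16.4, 582 and 56.1 CPM. For Eno2 the lowest mean was that of LPS+ tlr4f/f-lysM-cre, at 7.06 CPM, and the highest that of LPS+ tlr4f/f, at 21.0 CPM. Without the 3 libraries with over 500 CPM of stromal markers, only replicate 2 was left of LPS- tlr4f/f-lysM-cre, so the spread of that group was not measured. The log2 interaction was then -0.63 for Hif1a and -0.99 for Bnip3. For the other 4 it was -3.94 (Pfkfb3), 1.45 (Pfkfb4), -2.42 (Eno2) and -2.20 (Slc16a1).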

How the results depend on the processing

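Of 57 results of members with an adjusted p below 0.05, 17 kept that call in every alternative run, 40 lost it in at least 1 and none reversed. All 57 held with DESeq2, limma voom, RLE factors and at least 10 counts in every library. The call was lost in 12 of 51 results with all 12 libraries in a single fit, in 94 of 378 with 1 library left out, in 3 without a filter, in 5 with summed transcripts and in 15 of 33 without the stromal-rich libraries. The number of DEGs among the members was 0 between the tlr4f/f groups, and 2 with DESeq2, 1 with limma voom, and 0 to 1 without 1 library (1 without LPS- tlr4f/f replicate 3). Between the tlr4f/f-lysM-cre groups it was 2, and 10 with DESeq2, 7 with limma voom, 9 with all 12 libraries, 13 at an adjusted p below 0.05, and 0 to 5 without 1 library (0 without any LPS+ library, 5 without LPS- replicate 2 or 3). Between the LPS+ groups it was 11, and 24 at an adjusted p below 0.05, and 10 to 12 without 1 library. Between the LPS- groups it was 9, and 14 with DESeq2, 14 at an adjusted p below 0.05, 0 without the stromal-rich libraries, where fewer samples were left, and 4 to 7 without 1 library (4 without LPS- tlr4f/f replicate 2). For the interaction it was 1, and 7 with DESeq2, 2 without a filter, 6 at an adjusted p below 0.05, and 0 to 4 without 1 library (0 without any LPS+ library, 4 without LPS- tlr4f/f-lysM-cre replicate 2). DEGs over all genes moved as well. Between the tlr4f/f groups they numbered 0, and 467 with DESeq2 and 54 with limma voom. Between the tlr4f/f-lysM-cre groups they numbered 865, and 2002 with DESeq2, 992 with limma voom and 1150 with all 12 libraries. Without LPS+ tlr4f/f-lysM-cre replicate 1, 2 or 3 they numbered 4, 7 or 15. In the main fits they numbered 3161 between the LPS+ groups, 2497 between the LPS- groups and 164 for the interaction. Without the stromal-rich libraries only replicate 2 was left of LPS- tlr4f/f-lysM-cre, so the spread of that group was not measured. Counts of DEGs from that fit are left out between the tlr4f/f-lysM-cre groups and for the interaction. The causes of the lost calls and changed counts were not tested.

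The replicate numbers were not treated as pairs. Correlations of same-numbered libraries were 0.472, 0.340 and 0.0143 between the LPS- groups (replicates 1, 2 and 3). Between other groups they lay between -0.0379 and 0.190. Correlations between libraries of different number were not computed, so whether the LPS- libraries are paired was not tested. With the replicate block, DEGs among the members were 0 between the tlr4f/f-lysM-cre groups (Pfkfb3 and Pfkfb4 no longer called) and 9 between the LPS- groups. They were 12 between the LPS+ groups and 2 for the interaction, and 5 of the 57 results lost an adjusted p below 0.05.

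Shares per kilobase depend on the transcript. For the phosphofructokinases they are not given, since the Pfkp transcript with the highest total is 10163 bases long and the curated one 4033, which moved the Pfkp share from 42.9% to 68.6% in LPS- tlr4f/f-lysM-cre replicate 2. In the other families the curated transcript moved a share by at most 1.3 points. With summed transcripts 56 of 76 group means moved by more than 1 SD, up to 18.6 points outside the phosphofructokinases (Slc16a1 in LPS+ tlr4f/f replicate 1, from 25.1% to 6.47%), as genes with more transcripts are then counted more often.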
